A study of Mus musculus with 31 samples.

Results

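Nkx2-1, Nkx2-2, Nkx2-4 and Nkx2-5 were followed through 18 lists of histone-mark peaks from mouse primordial germ cells. The members were all peaks that overlap 3 windows of the mm9 genome set around these 4 genes: chr12:57615000-57655000 for Nkx2-1, chr2:146985000-147090000 for Nkx2-2 and Nkx2-4, and chr17:26960000-26995000 for Nkx2-5. The windows are 40.001, 105.001 and 35.001 kb long. They held 117 of the 265274 peaks in all lists, of which 3 were H3K9me3 peaks and the rest H3K27me3 peaks. Primordial germ cells, the precursors of eggs and sperm, were sorted as wild-type cells from C57BL/6 x GOF18delta_PE-EGFP embryos, a background that every group shared and that carries a fluorescent germ-cell reporter. Each mark was mapped by native ChIP-seq in 3 libraries per group. The groups were E10.5 cells, pooled over embryos and with no sex given, and cells of E13.5 females and of E13.5 males. Each library was made from 1000 cells. Nothing in the labels says that replicates are separate animals, so each p-value sets a difference against a spread of libraries that may be only technical. No expression values were used, so the germ-cell label was not checked against marker genes.

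Nkx2 genes encode homeodomain transcription factors that set cell identity in early organs. Nkx2-1 is needed for thyroid, lung and ventral forebrain, Nkx2-2 for ventral spinal cord and pancreatic endocrine cells, and Nkx2-5 for the heart, while Nkx2-4 is a close relative of Nkx2-1 in the ventral forebrain and thyroid. H3K27me3 is the mark laid by Polycomb repressive complex 2, which in many cell types covers such developmental regulators in broad domains while they are silent. H3K9me3 is the mark of constitutive heterochromatin and of silenced repeats.

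The promoter letters of the 4 genes are shown because CpG-rich start regions are a common place of Polycomb binding, with each CpG in capitals. They come from RefSeq promoters on GRCm38.p6, where all 4 genes lie on the minus strand. Each is the part of the 250 bases before the gene's start that holds no annotated exon, 5′ to 3′. They span chr12:56536909-56537158, chr2:147186456-147186652, chr2:147085446-147085595 and chr17:26841609-26841815 in the order below. These GRCm38 positions must not be read against the mm9 windows.
Nkx2-1: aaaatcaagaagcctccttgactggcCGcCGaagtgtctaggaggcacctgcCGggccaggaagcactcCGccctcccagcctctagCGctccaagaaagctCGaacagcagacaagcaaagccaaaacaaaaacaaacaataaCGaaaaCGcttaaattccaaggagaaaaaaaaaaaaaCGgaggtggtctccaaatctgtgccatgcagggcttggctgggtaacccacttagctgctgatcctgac
Nkx2-2: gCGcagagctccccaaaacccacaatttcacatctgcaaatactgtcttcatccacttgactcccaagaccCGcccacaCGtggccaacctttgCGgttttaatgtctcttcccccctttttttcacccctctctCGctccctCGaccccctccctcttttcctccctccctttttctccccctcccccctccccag
Nkx2-4: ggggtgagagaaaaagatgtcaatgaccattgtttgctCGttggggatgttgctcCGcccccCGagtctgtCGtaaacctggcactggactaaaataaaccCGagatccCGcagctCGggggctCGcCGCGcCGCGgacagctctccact
Nkx2-5: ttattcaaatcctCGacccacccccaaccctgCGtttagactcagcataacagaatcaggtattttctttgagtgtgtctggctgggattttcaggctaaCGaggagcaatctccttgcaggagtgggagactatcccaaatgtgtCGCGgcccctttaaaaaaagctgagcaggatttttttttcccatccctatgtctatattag
Over the full 250 bases, Nkx2-4 held 33 CpG and a GC content of 70.4%, and 4.03% of 32851 mouse promoters held as many. Nkx2-1 held 9 CpG, a number that 40.3% of promoters reached, and Nkx2-2 and Nkx2-5 held 8 each, which 43.0% reached. The median promoter held 6 CpG. The upstream bases of Nkx2-4 were thus far richer in CpG than those of the other 3 genes, which lay close to the median promoter. Of the Nkx2-4 CpG, 12 lay in the 150 printed bases. Bases past a gene's start were not counted, so these numbers do not show whether the other 3 genes have CpG-rich starts. CpG was counted as the letters CG, which read the same on both strands.

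A check of the windows against the annotation concerned the pair on chromosome 2. In RefSeq GRCm38.p6, Nkx2-4 and Nkx2-2 together span 112.1 kb, with 91.0 kb between them and Nkx2-4 on the lower side, and the window is 105.001 kb long. If the mm9 spacing is the same, the window cannot hold both genes whole. The genes were not placed on mm9 here, so the interval is called the chromosome 2 window, and no peak in it is assigned to one gene. The peaks below it are described with its surroundings.

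The lists differed widely in extent. The H3K27me3 lists held 11330, 1703 and 23141 peaks covering 19.9, 2.08 and 35.5 Mb in E10.5 replicates 1 to 3. In E13.5 female replicates 1 to 3 they covered 1.56, 5.22 and 4.13 Mb, and in E13.5 male replicates 1 to 3 they covered 2.47, 0.159 and 3.99 Mb. E13.5 male replicate 2, with 359 peaks, is the shortest of the 9 lists, and E10.5 replicate 2 is the shortest of its group, though longer than E13.5 female replicate 1. Mean list length was 6.56 times larger at E10.5 than at E13.5 (exact two-sided permutation test, p = 0.0595, 3 against 6 lists). For E10.5 replicate 3 the peak names give an H3K9me3 input as the control. Read depths were not analysed here. The effect of list length and of that control on the window values was not tested beyond the values given beside each result.

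H3K27me3 peaks covered more of every Nkx2 window in every E10.5 list than in any E13.5 list. Mean covered length at E10.5 was 18.6 to 18.8 kb in the 3 windows, and at E13.5 it ranged from 1.43 to 6.23 kb by window and sex. In the Nkx2-1 window, E10.5 replicates 1 to 3 had 20.3, 8.20 and 27.4 kb, a mean of 18.6 ± 9.70 kb (SD, n = 3). The E13.5 female lists had 5.24, 7.55 and 5.88 kb (6.23 ± 1.19, SD, n = 3), and the E13.5 male lists 4.15, 0 and 6.39 kb (3.51 ± 3.24, SD, n = 3). The E10.5 and E13.5 lists did not overlap, although E10.5 replicate 2 lay only slightly above E13.5 female replicate 2, and the female and male lists did overlap.

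In the chromosome 2 window, E10.5 replicates 1 to 3 had 22.97, 7.18 and 26.3 kb (18.8 ± 10.2, SD, n = 3). The female lists had 4.70, 4.09 and 3.57 kb (4.12 ± 0.57, SD, n = 3). The male lists had 0.775, 0 and 3.52 kb (1.43 ± 1.85, SD, n = 3). Here every female list also lay above every male list, with 3.57 kb in the lowest female list and 3.52 kb in the highest male list, a gap far smaller than the spread among the male lists. The share of intervals of this length with the same order of the sexes was not counted. The male lists include replicate 2, the shortest list.

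In the Nkx2-5 window, E10.5 replicates 1 to 3 had 23.3, 8.67 and 23.8 kb (18.6 ± 8.59, SD, n = 3). The female lists had 0.269, 7.32 and 4.00 kb (3.86 ± 3.53, SD, n = 3). The male lists had 1.93, 0.789 and 5.34 kb (2.68 ± 2.37, SD, n = 3). Female and male lists were intermingled, and this was the only one of the 3 windows in which E13.5 male replicate 2, the shortest list, had a peak.

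**Figure D1:**
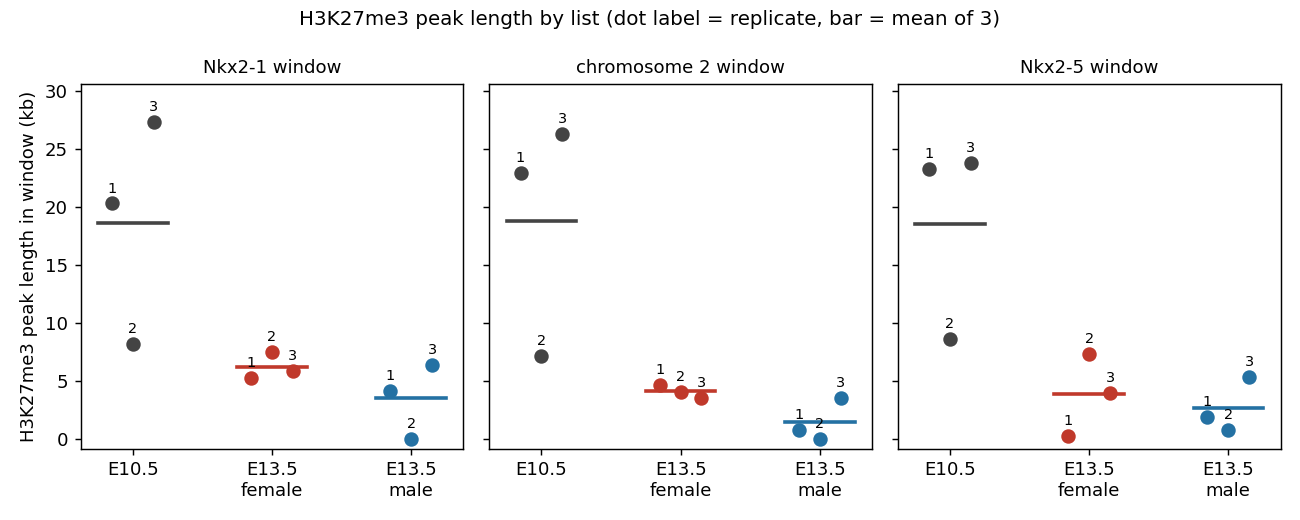
Length covered by H3K27me3 peaks (y axis, kb) in the Nkx2-1, chromosome 2 and Nkx2-5 windows, by group (x axis); each dot is 1 list, labelled with its replicate number, and each bar is the mean of 3 lists. The lowest E10.5 list (8.20, 7.18 and 8.67 kb) is above the highest E13.5 list (7.55, 4.70 and 7.32 kb) in each window.

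Set against all 6 E13.5 lists, the mean differed by −13.8 kb from E10.5 in the Nkx2-1 window, a ratio of E10.5 to E13.5 of 3.83. The difference was −16.1 kb in the chromosome 2 window (ratio 6.79) and −15.3 kb in the Nkx2-5 window (ratio 5.68). Each gave p = 0.0119 in an exact two-sided permutation test of 3 against 6 lists, the smallest p that its 84 splits allow. Among intervals of the same length with H3K27me3 peaks in at least 3 of the 9 lists (4220, 3399 and 4270 intervals), every E10.5 list lay above every E13.5 list in 8.67%, 8.77% and 8.38% respectively. An exact p under 0.05 with E10.5 higher was found in 17.9%, 18.9% and 17.7%. The separation of the stages in covered kb was therefore met in all 3 Nkx2 windows and in fewer than 1 in 10 such intervals. It needs a peak in every E10.5 list, and E10.5 replicate 2 had peaks in only 1134, 1003 and 1128 intervals of these lengths. Most tested intervals could thus not separate, and the share among intervals marked in all E10.5 lists was not computed. The ratio of the windows was below that of the whole lists (6.56) for Nkx2-1 and Nkx2-5 and just above it for the chromosome 2 window.

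E10.5 replicate 2 had more window length than some longer lists. It covered 2.08 Mb in all, and 4 of the E13.5 lists were longer, at 2.47 to 5.22 Mb. In the Nkx2-1 window E10.5 replicate 2 had 8.20 kb and those 4 longer lists had 4.15 to 7.55 kb. In the chromosome 2 window it had 7.18 kb against 0.775 to 4.09 kb, and in the Nkx2-5 window 8.67 kb against 1.93 to 7.32 kb. These values restate, for 1 list, that the stages did not overlap, and the part of list length in the difference was not tested by them. With the same number of top-ranked peaks, 359, kept in every list, the difference was −7.65 kb for Nkx2-1 (exact permutation p = 0.0833), 0.03 kb for the chromosome 2 window (p = 1.0), where no E10.5 list kept a peak, and −4.08 kb for Nkx2-5 (p = 0.333), so the call was lost in all 3.

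The share of a list's own covered length that fell in a window, in ppm (1 ppm of a 1 Mb list is 1 base), takes the length of the list into account. In the Nkx2-1 window the shares were 1023, 3935 and 771 ppm in E10.5 replicates 1 to 3. They were 3362, 1447 and 1425 ppm in the female lists and 1676, 0 and 1601 ppm in the male lists. On this scale the stages overlapped, and the highest E10.5 share came from replicate 2, the shortest list of that group.

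In the chromosome 2 window the shares were 1156, 3448 and 741 ppm at E10.5. The female lists had 3017, 783 and 864 ppm and the male lists 313, 0 and 882 ppm. In the Nkx2-5 window the shares were 1173, 4163 and 670 ppm at E10.5, 173, 1402 and 968 ppm in the female lists and 779, 4961 and 1338 ppm in the male lists. The highest Nkx2-5 share, in E13.5 male replicate 2, rested on 1 peak of 789 bp.

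**Figure D2:**
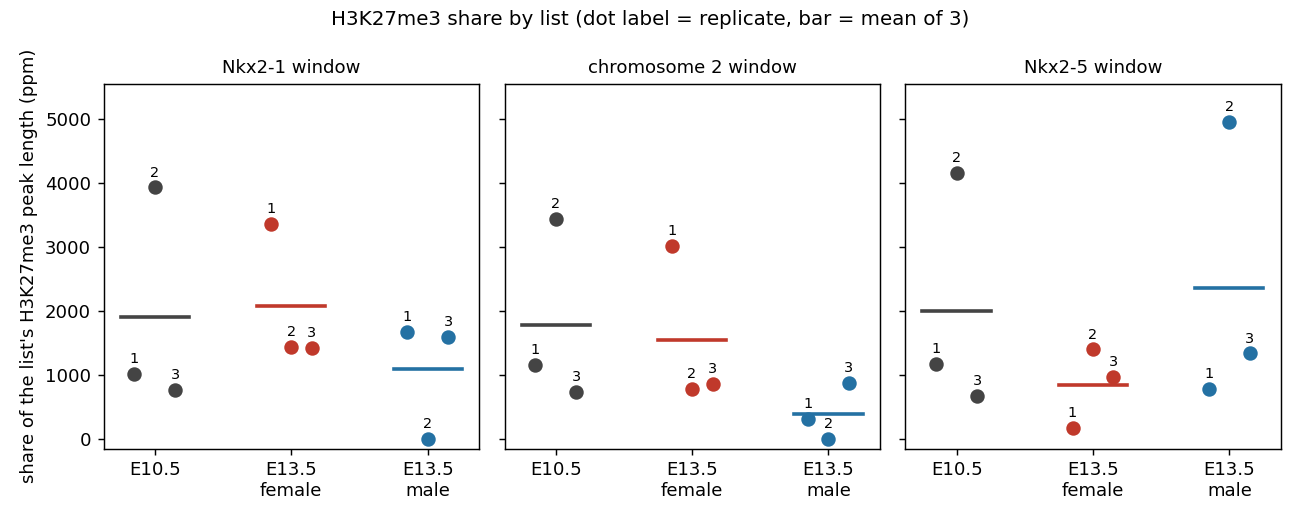
Share of each list's H3K27me3 peak length that lies in the window (y axis, ppm) by group (x axis); each dot is 1 list, labelled with its replicate number, and bars are means of 3 lists. The groups overlap in all 3 windows, and E10.5 replicate 2 and E13.5 male replicate 2 hold extreme values.

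No change of the share passed the threshold. limma was fitted to log2(ppm + 100) over all intervals of the window's length with peaks in at least 3 lists, with Benjamini-Hochberg adjustment. E13.5 against E10.5 gave −0.44 ± 0.90 (log2 change ± SE, adjusted p = 0.900, limma) for Nkx2-1, with a 95% interval of −2.44 to 1.55. The chromosome 2 window gave −1.17 ± 0.76 (adjusted p = 0.671, limma), with an interval of −2.86 to 0.52. Nkx2-5 gave −0.44 ± 0.76 (adjusted p = 0.876, limma), with an interval of −2.11 to 1.23. All 3 intervals reach to both sides of 0, so these lists do not show whether the share differed between stages. In the same fits limma called 0.284% of intervals lower and 0.0474% higher at the Nkx2-1 length, 0.765% and 0.0588% at the chromosome 2 length, and 0.0468% and 0.0% at the Nkx2-5 length.

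By sex, the lowest estimates were in the chromosome 2 window. Male cells gave −2.18 ± 0.88 (log2, SE) against E10.5 (unadjusted p = 0.0323, adjusted p = 0.381, limma) and −2.01 ± 0.88 against female cells (unadjusted p = 0.0448, adjusted p = 0.576, limma). For Nkx2-1 the male estimate against female was −1.59 ± 1.04 (adjusted p = 0.659, limma), and for Nkx2-5 it was 1.29 ± 0.88 (adjusted p = 0.677, limma). These estimates of the 3 windows thus did not share a sign between the sexes, though the Nkx2-5 estimate turned below 0 in 2 alternatives given at the end. None of the 12 limma estimates for H3K27me3 was called, with 2 of them under an unadjusted p of 0.05. For female against E10.5 limma called 0.0% of intervals at each length. For male against E10.5 it called 0.0948% lower and 0.0474% higher at the Nkx2-1 length, 0.147% and 0.0294% at the chromosome 2 length and 0.141% and 0.0703% at the Nkx2-5 length. For male against female the shares were 0.0711% and 0.0474%, 0.0% and 0.0%, and 0.187% and 0.0703%.

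Leaving out male replicate 2 moved the chromosome 2 estimates to −1.29 for male against E10.5 (adjusted p = 0.558, limma) and −1.12 for male against female (adjusted p = 0.727, limma). It moved male against female to −0.21 for Nkx2-1 and 0.57 for Nkx2-5. Dropping E10.5 replicate 2 and male replicate 2 together turned the Nkx2-1 estimate for E13.5 against E10.5 from −0.44 to 0.92, and moved chromosome 2 from −1.17 to −0.13 and Nkx2-5 from −0.44 to −0.10. Male against E10.5 on chromosome 2 was then −0.69. Dropping E10.5 replicate 2 alone turned Nkx2-1 to 0.23 and Nkx2-5 to 0.26, and dropping E13.5 male replicate 2 alone turned Nkx2-1 to 0.24. With only peaks of column 7 (the authors' peak score) of at least 20 kept, Nkx2-5 gave −4.05 for E13.5 against E10.5 (adjusted p = 0.0022, limma), past the threshold. That minimum acted unequally on the lists: it kept 1690 of 1703 peaks in E10.5 replicate 2, 837 of 7839 in female replicate 2 and 676 of 6813 in female replicate 3, on a score whose scale was not given. It also raised the intervals called for E13.5 against E10.5 from 14 to 432 at the Nkx2-1 length. At the chromosome 2 length they rose from 28 to 345. The share called at the Nkx2-5 length is not given here, so the call is not shown to be particular to that window.

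**Figure D3:**
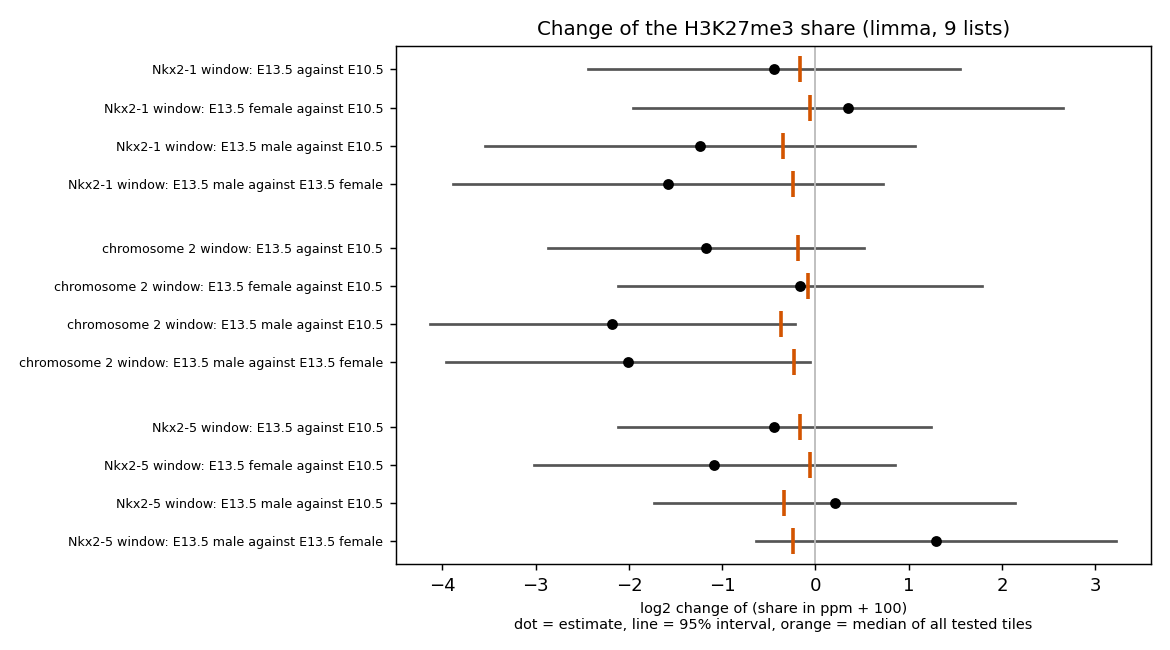
limma estimates for the H3K27me3 share in each window (x axis, log2 change of ppm + 100) for 4 contrasts per window (y axis); dots are estimates from 9 lists, lines are 95% intervals, and orange ticks are the median of all tested intervals. All lines cross 0 except male against E10.5 and male against female in the chromosome 2 window, whose adjusted p-values were 0.381 and 0.576.

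Without the division by list length, on the log2(kb + 1) scale, limma gave −1.85 ± 0.64 for Nkx2-1 (adjusted p = 0.120), −2.45 ± 0.56 for the chromosome 2 window (adjusted p = 0.053) and −2.37 ± 0.67 for Nkx2-5 (adjusted p = 0.0821) for E13.5 against E10.5. All 12 estimates lay below 0 on this scale, 8 had an unadjusted p under 0.05 and 0 were called. The median of all tested intervals itself shifted on this scale, to −1.03, −1.11 and −1.03 at the 3 lengths.

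Held by a group means at least 1 kb of peaks in all 3 of its lists. E10.5 cells held all 3 Nkx2 windows, where 11.9%, 13.4% and 11.9% of tested intervals of the Nkx2-1, chromosome 2 and Nkx2-5 lengths were held. E13.5 female cells held 2 windows, Nkx2-1 and chromosome 2 (8.15% and 9.89% of intervals), and missed Nkx2-5 (8.03%) through replicate 1 with 0.269 kb. E13.5 male cells held 0 of 3 windows, with 0.474%, 0.677% and 0.515% of intervals held. Without male replicate 2, male cells held 2 windows, so the male count rests on the shortest list. The share of intervals held by the 2 remaining male lists was not counted.

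The Nkx2 windows ranked high within most lists. In the 8 lists with a peak there, between 0.047% and 0.179% of 66018 genome intervals of equal length held as much H3K27me3 length as the Nkx2-1 window. For the Nkx2-5 window this was 0.0437% to 1.61% of 75452 intervals over 9 lists. For the chromosome 2 window it was 0.215% to 3.0% of 25129 intervals over 8 lists. Nkx2-1 had the narrowest range, and the E13.5 lists that had peaks there ranked it much as the E10.5 lists did.

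The windows differed in how their peaks were built. Median peak width was larger at E10.5 than in either E13.5 sex in each window. Whole lists differed in the same direction, with medians of 728 to 923.5 bp at E10.5 and 283 to 553 bp at E13.5. In the Nkx2-1 window the 14 E10.5 peaks had a median width of 1729.5 bp, the 23 female peaks 654.0 bp and the 12 male peaks 894.5 bp. In the Nkx2-5 window the 7 E10.5 peaks had a median of 7328.0 bp, the 12 female peaks 837.0 bp and the 9 male peaks 826.0 bp. In the chromosome 2 window the 15 E10.5 peaks had a median of 1427.0 bp, the 17 female peaks 549.0 bp and the 5 male peaks 421.0 bp. Peaks of 1 list share their library, so these widths are descriptions without a test.

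The widest E10.5 peaks spanned most of a domain in 1 piece. In replicate 3, chr12:57620467-57641957 (21491 bp) covered over 20 kb of the Nkx2-1 window, and chr2:147004505-147024591 (20087 bp) did so in the chromosome 2 window. In replicate 1, chr17:26970236-26991650 (21415 bp) lay in the Nkx2-5 window. The widest E13.5 peaks were 2308 bp for Nkx2-1 (female replicate 3), 3240 bp for chromosome 2 (female replicate 1) and 3750 bp for Nkx2-5 (female replicate 2). Peaks over 5 kb numbered 3 of 14, 4 of 15 and 4 of 7 at E10.5 in the Nkx2-1, chromosome 2 and Nkx2-5 windows, and 0 in either E13.5 sex. The widest peak anywhere in a list was 11146 to 43733 bp at E10.5 and 4666 to 7253 bp at E13.5. The share of peaks over 5 kb in whole lists was not counted, so these counts are not particular to the windows.

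Column 7 of the lists, the authors' own score of a peak on a scale that was not given, is used here to rank peaks within a list. The top peak of the Nkx2-1 window lay at the 94.8, 84.9 and 99.2 percentile of its list in E10.5 replicates 1 to 3. For Nkx2-5 these were 92.3, 61.9 and 99.3, and for chromosome 2 they were 84.2, 31.3 and 98.4. In the E13.5 female lists the top chromosome 2 peaks lay at 81.3, 90.1 and 96.7, and the top Nkx2-5 peaks at 17.2, 78.1 and 79.3. Within E10.5 the top peaks of replicate 2 had the lowest percentiles in all 3 windows, and its chromosome 2 peak lay below the median of its list.

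**Figure D4:**
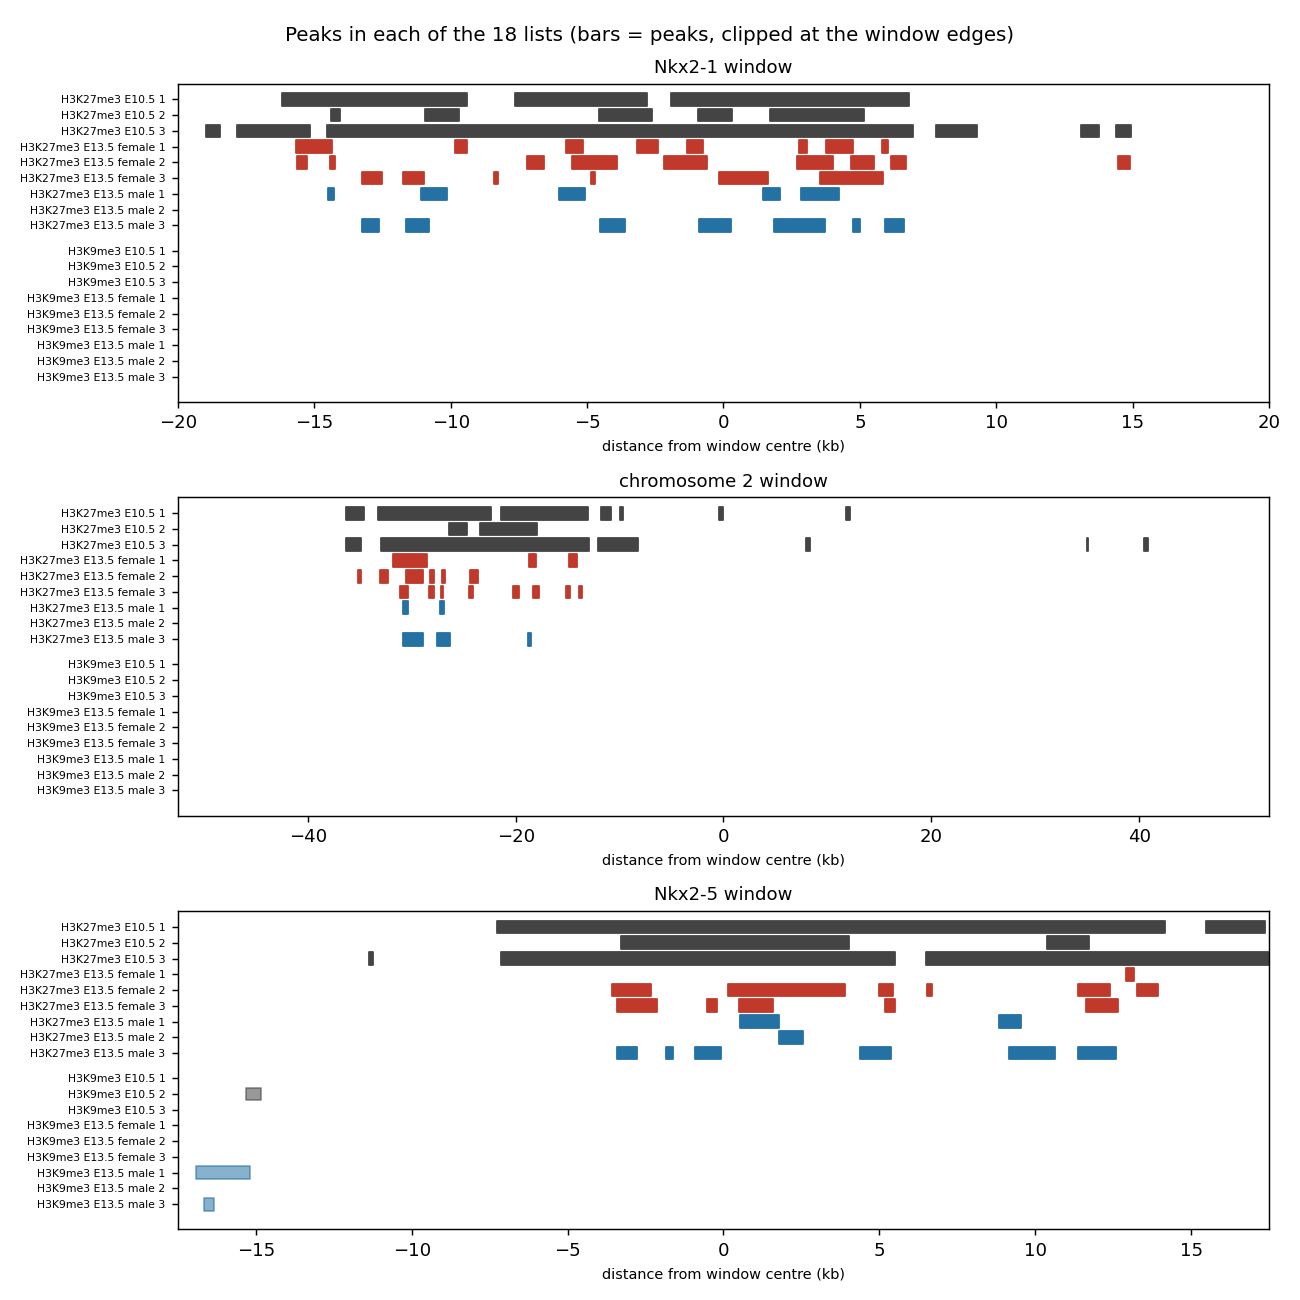
Peaks of both marks in each of the 18 lists (rows) along the Nkx2-1, chromosome 2 and Nkx2-5 windows (x axis, kb from the window's centre); dark grey is E10.5, red E13.5 female, blue E13.5 male, and paler bars are H3K9me3. Long E10.5 blocks are matched by short E13.5 peaks inside them, and the 3 H3K9me3 peaks lie at the lower edge of the Nkx2-5 window, apart from all H3K27me3 peaks.

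The E13.5 peaks lay within the territory of the E10.5 domains. Merged over the 3 lists of the stage, E10.5 peaks covered 28.0 kb of the Nkx2-1 window, 27.7 kb of the chromosome 2 window and 24.9 kb of the Nkx2-5 window. The merged E13.5 peaks covered 17.5, 10.0 and 11.5 kb, and 100% of each lay inside the E10.5 peaks, where genome-wide 75.1% did. Seen from the other side, they covered 62.6%, 36.2% and 46.2% of the E10.5 length, against 23.4% over the genome. Merged lengths grow with the number and length of lists, so these shares are descriptions.

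Against single E10.5 lists the containment depended on the list. Of each E13.5 list's Nkx2-1 length, 90.8% to 100% lay in E10.5 replicate 1 and 88.2% to 100% in replicate 3, over the 5 E13.5 lists with peaks there. For the chromosome 2 and Nkx2-5 windows replicate 1 held 100% in every E13.5 list with peaks, and replicate 3 held 97.9% to 100%. Replicate 2 held a median of 41.3% for Nkx2-1, 11.7% for chromosome 2 and 64.8% for Nkx2-5. Over whole lists the medians were 65.8%, 16.7% and 76.0% for E10.5 replicates 1, 2 and 3. Containment in replicates 1 and 3 was above those whole-list medians in each window, and in replicate 2 it was above in 2 windows and below on chromosome 2.

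The E10.5 core of a domain is here the length covered by all 3 E10.5 lists. It was 8.02 kb in the Nkx2-1 window, 6.22 kb in the chromosome 2 window and 8.67 kb in the Nkx2-5 window. These lengths are bounded by replicate 2, the shortest E10.5 list, which had 8.20, 7.18 and 8.67 kb there. The longest shared stretch of the Nkx2-1 window was chr12:57636713-57640142 (3.43 kb), and the next was chr12:57630422-57632183 (1.76 kb). On chromosome 2 the longest was chr2:147016070-147019530 (3.46 kb). In the Nkx2-5 window 1 stretch, chr17:26974207-26981534 (7.33 kb), held most of the shared length and chr17:26987868-26989213 (1.35 kb) the rest. Nkx2-5 thus had most of its E10.5 core in 1 stretch, and the Nkx2-1 core came mostly in 4 stretches of over 1 kb. These stretches largely follow the peaks of replicate 2, so their number rests on that list.

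E13.5 lists of 1 sex shared little. All 3 female lists shared 0.314 kb in the Nkx2-1 window, 0.229 kb in the chromosome 2 window and 0 kb in the Nkx2-5 window, and the 3 male lists shared 0 kb in each. The female lists agreed by pairs over 1.98 kb at chr12:57638552-57640531, which overlaps the longest E10.5 core of Nkx2-1 and runs past its upper end. On chromosome 2 female pairs agreed over 2.17 kb at chr2:147006382-147008554, which lies outside the E10.5 core. The best-shared stretches of all 9 lists had 7 lists, over 0.632 kb in the Nkx2-1 window and over chr2:147006958-147007113 (0.156 kb) on chromosome 2, and 6 lists over 1.67 kb in the Nkx2-5 window. These counts include the 3 E10.5 lists that define the core, which favours positions in it. By E13.5 lists alone, the best agreement at Nkx2-1 was 4 lists over 0.632 kb, all in the E10.5 core. At Nkx2-5 it was 3 lists over 2.63 kb, of which 1.67 kb lay in the core. On chromosome 2 the E13.5 lists agreed best at the lower part of the domain, where E10.5 replicate 2 had no peak.

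Between the sexes, the merged female and male peaks shared 6.06 kb in the Nkx2-1 window, which was 42.0% of the female and 66.2% of the male length. On chromosome 2 they shared 2.40 kb (27.1% of female, 68.3% of male), and in the Nkx2-5 window 4.57 kb (54.4% and 59.5%). Over the genome the shares were 26.4% and 41.9%. In each window both shares were above the genome's, and no test was made of this difference.

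The surroundings held few peaks at Nkx2-5 and many on chromosome 2. The 35.001 kb below the Nkx2-5 window had 0 kb in all 9 H3K27me3 lists, and the same length above it had 0.688, 0 and 2.498 kb in E10.5 replicates 1 to 3 and 0 kb in all 6 E13.5 lists. Part of the former is 1 peak of E10.5 replicate 3 that crosses the window's edge and ends at position 26996956. The 40.001 kb above the Nkx2-1 window had 0 kb in all 9 lists, and the same length below it had at most 1.79 kb in an E10.5 list, 0.44 kb in a female list and 0 kb in the male lists. Beyond the empty interval above Nkx2-1, the next 40.001 kb held means of 8.76 ± 5.34 kb for E10.5, 1.62 ± 1.80 kb for female and 1.40 ± 1.72 kb for male lists (SD, n = 3 each). In GRCm38.p6 the next gene on that side of Nkx2-1 is its family member Nkx2-9, 74.5 kb away, which was not placed on mm9 here.

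On chromosome 2, nearly all window peaks lay in its lower part. All 17 female and 5 male peaks and 11 of 15 E10.5 peaks had their centre below the window's middle. The 105.001 kb below the window, chr2:146879999-146984999, had 7.20, 0 and 7.33 kb in E10.5 replicates 1 to 3, 0.175, 0.738 and 0.186 kb in the female lists and 0 kb in the male lists. In the 5 lists with peaks there, 78.2 to 96.4 kb separated the last of these peaks from the first peak of the window, beside the 91.0 kb between Nkx2-4 and Nkx2-2 in GRCm38.p6. When that lower stretch was joined to the window, E10.5 averaged 23.7 kb and E13.5 2.96 kb (exact permutation p = 0.0119, 3 against 6 lists). The 105.001 kb above the window held means of 15.5 ± 13.1 kb for E10.5, 3.46 ± 3.03 kb for female and 1.94 ± 1.90 kb for male lists (SD, n = 3 each), and the next gene on that side of Nkx2-2 is Pax1, a paired-box regulator of the axial skeleton. The chromosome 2 window thus lay between other stretches of H3K27me3 peaks at E10.5.

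**Figure D5:**
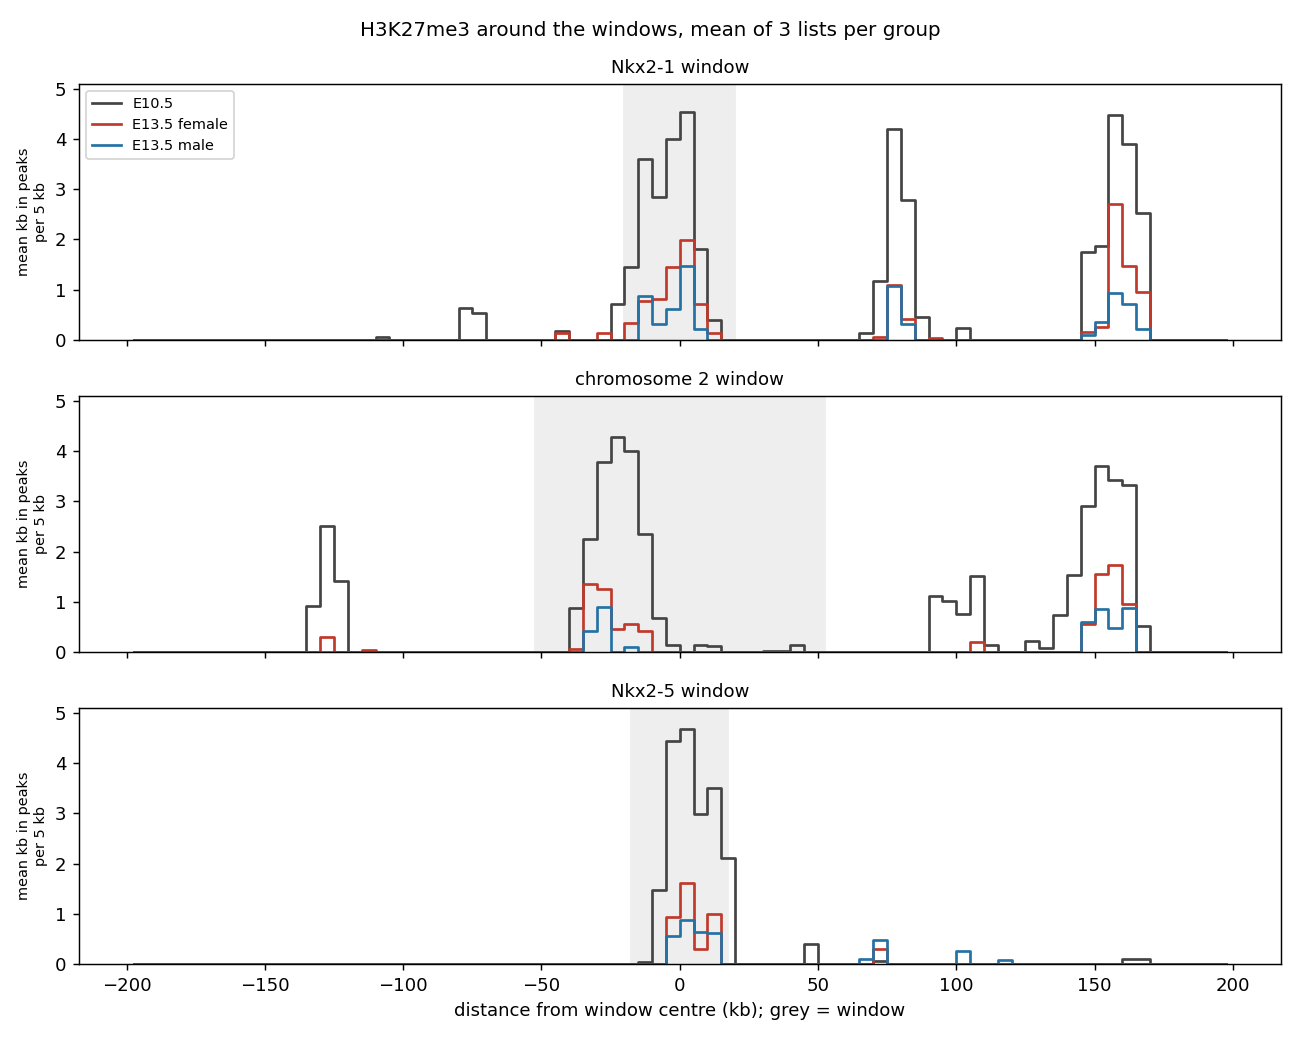
Mean H3K27me3 peak length per 5 kb step (y axis, kb) up to 200 kb on each side of the centre of the Nkx2-1, chromosome 2 and Nkx2-5 windows (x axis, kb; grey marks the window), with a line for each group's mean of 3 lists. The E10.5 line is highest inside each window, and further domains appear above Nkx2-1 and on both sides of the chromosome 2 window.

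H3K9me3 was all but missing from the Nkx2 windows. All 9 H3K9me3 lists, which covered 0.441 to 78.9 Mb in all, had 0 kb in the Nkx2-1 window and 0 kb in the chromosome 2 window. In the Nkx2-5 window E10.5 replicate 2 had 0.480 kb at chr17:26962176-26962655, and E13.5 male replicates 1 and 3 had 1.73 kb at chr17:26960592-26962319 and 0.333 kb at chr17:26960832-26961164. The other 6 lists had 0 kb there, and 0 kb of the H3K9me3 length was shared with an H3K27me3 peak of any list.

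No group held a Nkx2 window in H3K9me3. Most intervals of the Nkx2-1 length had no H3K9me3 peak in a given list either, since 1.24% to 33.8% of all 66018 intervals had one. At the Nkx2-5 length these shares were 1.09% to 31.4%, and at the chromosome 2 length 2.92% to 56.2%. Among only those intervals with H3K9me3 peaks in at least 3 lists, a set that the Nkx2-1 and chromosome 2 windows are not in, male cells held 37.0%, 45.9% and 35.6% at the Nkx2-1, chromosome 2 and Nkx2-5 lengths. Female cells held 2.85%, 5.14% and 2.53% and E10.5 cells 0.235%, 0.284% and 0.248% of that set. The Nkx2-5 share of H3K9me3 did not pass the threshold in limma for E13.5 against E10.5, at 0.03 ± 0.09 (log2, SE, adjusted p = 0.869), with a 95% interval of −0.18 to 0.24. For male against female cells it was 0.15 ± 0.11 (adjusted p = 0.521, limma). The lists with a peak there had shares of only 10.3 to 21.9 ppm, far below the 100 ppm added before the logarithm. That addition holds these estimates and their intervals near 0, so the fits cannot show whether the H3K9me3 share differed. At the Nkx2-5 length limma called 0.0% of intervals for E13.5 and for male cells against E10.5. It called 0.136% higher for female cells against E10.5, and 0.189% higher and 0.0885% lower for male against female. The Nkx2-1 and chromosome 2 windows had no H3K9me3 value to test.

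Genome intervals most like each window were named by Pearson's r over the 9 H3K27me3 lists, among intervals with peaks in at least 6 lists. The r was taken on the logarithmic share scale of the limma fits, not on covered kb. For Nkx2-1 these were chr4:139377044-139417044 (r = 0.994) and chr6:83655651-83695651 (r = 0.989). For the chromosome 2 window they were chr5:147930009-148035009 (r = 0.983) and chr2:35998943-36103943 (r = 0.962), and for Nkx2-5 chr8:126047831-126082831 (r = 0.935) and chr13:113762480-113797480 (r = 0.887). These are the highest of 1345, 1192 and 1364 intervals, all points share the lists' lengths, and no p is given. In E13.5 male replicate 2, the shortest list, the Nkx2-1 and chromosome 2 windows and their matches all had 0 kb. That shared 0 is their lowest value on this scale and can weigh heavily on r, which was not computed without that list. Nkx2-5 had the weakest match, its female replicate 1 value of 0.269 kb standing beside 0 kb in both of its matches.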

How the data were processed

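Broad H3K27me3 and H3K9me3 peaks of 18 libraries were used, 1 list per library. Per the submitters' processing notes, the tools were MACS2 2.1.0, BWA 0.7.5a, deepTools 3.3.0, CASAVA 1.8.4, SAMtools and Picard, on mm9, with no role given. Per the file's peak names, each library was called against an input. The 13 input samples were not analysed here. The deposited score columns are the authors' own values on a scale not given in the sources used here and served to rank peaks within lists and, in alternatives, to filter them, once by 1 minimum for all lists. Overlapping peaks were merged, 19 mitochondrial peaks dropped, and lengths clipped to each window. Shares (ppm of the list's length) were tested with limma 3.58.1 in R 4.3.3 on log2(ppm + 100) over intervals with peaks in at least 3 of 9 lists, with all 3 groups in 1 fit, after tests on simulated data. Covered kb was tested by exact permutation. The rule for named intervals was the 2 with the highest r. Members and lists were chosen with earlier results of these data known. Alternatives changed pseudocount, filter, scaling, peak threshold, window edges, overlap, replicate block and lists kept. Arms that keep 2 lists borrow the pooled spread.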

Additional observations from a re-analysis of the deposited data

How the results depend on the processing

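When any 1 list was left out, the covered kb difference of E13.5 from E10.5 ranged over −18.99 to −9.40 kb (Nkx2-1), −21.9 to −12.3 kb (chromosome 2) and −20.3 to −12.7 kb (Nkx2-5) and exact permutation p from 0.0179 to 0.0357, the smallest those designs allow, which the non-overlap of the stages fixes, so that they add nothing to it. With 359 top-ranked peaks in every list the differences were −7.65, 0.0297 and −4.08 kb, and with only peaks at or above each list's median of column 7 chromosome 2 gave −13.4 kb (exact permutation p = 0.0833). Female cells held 1 window at 5 kb, and male cells held 1 with any overlap and 2 without male replicate 2 (0 to 2 over single lists left out). The shares of intervals held under these other rules were not counted. Of 244 alternative limma estimates for the H3K27me3 share, 219 kept direction and call, 23 changed direction and 2 passed the threshold in the same direction. One of the 23 also passed it, so 3 passed in all. With column 7 of at least 20, which left the 6 E13.5 lists a mean of 0.036 kb at Nkx2-5, that window gave −4.05 (adjusted p = 0.0022), −4.43 for female (0.00398) and −3.67 for male cells (0.00812) against E10.5, and Nkx2-1 gave −0.72 for female cells. On the log2(kb + 1) scale Nkx2-1 gave −1.31 for female cells, and Nkx2-5 gave −2.49 for male cells against E10.5 and −0.22 against female. With peaks at or above the list median, chromosome 2 gave 0.57 for E13.5 and 1.52 for female cells, and Nkx2-5 gave −3.05 for male against E10.5 and −0.99 against female. Without E10.5 replicate 2 and male replicate 2, an alternative chosen after seeing the data like the chromosome 2 extension, Nkx2-1 gave 0.92 for E13.5 and 0.81 for male cells, and chromosome 2 0.43 for female cells. Over single lists left out, estimates against E10.5 ranged for Nkx2-1 from −0.87 to 0.24 (E13.5), −0.0803 to 1.03 (female) and −1.94 to 0.14 (male), for chromosome 2 from −0.75 to 0.43 (female), and for Nkx2-5 from −0.97 to 0.26 (E13.5) and −0.52 to 0.91 (male). The cause of these changes was not tested. At the Nkx2-1 length, intervals called for E13.5 against E10.5 numbered 2 higher and 12 lower, 1 and 42 with peaks in at least 1 list, 3 and 177 on the kb scale, and 30 and 402 with column 7 of at least 20. The 3 calls at Nkx2-5 under that minimum are thus not shown to be particular to that window. The H3K9me3 alternatives that could be fitted, 13 per contrast and all for Nkx2-5, kept direction and call. Their size varied, and male against female ranged from 0.017 to 0.958 in the Nkx2-5 window. That window had H3K9me3 peaks in exactly 3 of 9 lists, the fewest that a fit takes. Leaving out any of these 3 lists thus gave no estimate, and only the 6 arms that dropped a list without a peak remained. The dependence on the lists with peaks was therefore not tested.

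Same-numbered lists did not deviate together throughout, with correlations from −0.149 to 0.125 at the Nkx2-1 length and −0.166 to 0.165 at the chromosome 2 length. Differently numbered lists ranged from −0.214 to 0.186 and −0.245 to 0.211. Pairs of replicate 3 were all positive, at 0.0980 to 0.165 over the 3 lengths, and pairs of replicates 1 and of replicates 2 had mixed signs. Replicate numbers were not taken as pairs. With the replicate number as a block, Nkx2-1 gave −0.44 (adjusted p = 0.894, limma), chromosome 2 −1.17 (0.668) and Nkx2-5 −0.44 (0.821) for E13.5 against E10.5, and called intervals fell to 0 at all 3 lengths.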
